A study of Macaca fascicularis and Mus musculus with 492 samples.

Results

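The genes described here are the LIF receptor gene LIFR, the shared signal-transducing receptor subunit gene IL6ST, the interleukin-6 receptor gene IL6R, the transcription factor gene STAT3 and its feedback inhibitor gene SOCS3. The rule was to take the rows with these 5 names from the cynomolgus monkey table and the rows of the same name from the mouse table. It gave 5 of the 28797 monkey genes with values and 4 of the 26219 mouse genes. The monkey gene IDs are 102131906 for LIFR, 101926138 for IL6ST, 102116430 for IL6R, 102118402 for STAT3 and 102121569 for SOCS3. IL6ST is listed under a placeholder name made from its ID and was given its symbol by that ID. No mouse row is named Il6r. The mouse interleukin-6 receptor gene is Il6ra, which falls outside the rule, and its values are given only beside the others.

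Cytokines of the interleukin-6 family signal through receptors that share IL6ST. LIF binds LIFR, which pairs with IL6ST, and interleukin 6 binds IL6R, which joins IL6ST as well. The bound receptor activates JAK kinases, these phosphorylate STAT3, and STAT3 switches on target genes, among them SOCS3, whose product shuts the receptor complex off again. In mouse, LIF and STAT3 hold embryonic stem cells (ESCs) in the naive state, while primate ESCs are usually grown without dependence on LIF.

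Single cells were measured by SC3-seq, a single-cell method that reads mRNAs from their poly-A ends. The monkey cells were 31 ESCs and embryo cells, of which 43 came from embryonic day 6 (E06), 35 from E07, 95 from E08, 20 from E09, 46 from E13, 62 from E14, 36 from E16 and 53 from E17. The ESCs were 9 cells of the line CMK6 without feeders, 8 cells of the line CMK9 on mouse embryonic feeders and 14 cells of CMK6 on the same feeders. The on-feeder medium held mouse LIF at 1000 U/ml, bFGF at 4 ng/ml and KSR at 20%, and the labels give no composition for the feeder-free medium. On-feeder cells were lifted as clumps and then trypsinized, and feeder-free cells were taken up in TrypLE. The mouse cells, all of strain C57BL/6, were 12 epiblast-like cells (EpiLCs), 10 ESCs in 2i and LIF without feeders, from which the EpiLCs were induced for 2 days with activin A at 20 ng/ml, bFGF at 12 ng/ml and KSR at 1%, 24 cells of E6.5 embryos and 25 cells of E5.5 embryos. Both mouse cultures were the line BVSC R8.

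The values are RPM, read counts scaled to the total of each library, and levels are given as log2(RPM + 1) averaged over the cells of a class on a day, or of a culture, with at least 5 cells. The labels name no embryos, so a day or a culture was the unit of every comparison, and p-values measure the spread between days or cultures, which may be technical. Monkey cells had 166742 to 4491539 reads (median 1879342), with the lowest median, 912193, at E17, and mouse cells had 1004103 to 4158784 (median 2642943). Embryo cells were clustered without the 5 genes and without the other pathway genes, and a cluster was named X-like from marker genes. The monkey classes were hypoblast-like (54 cells of E07 to E09, with 8 of 10 hypoblast markers raised), epiblast-like (cluster 9 at E07 to E09, cluster 8 at E13 and E14, cluster 4 at E16 and E17), trophectoderm-like (clusters 10, 11 and 7), extraembryonic-mesenchyme-like (clusters 0 and 1) and gastrulating-like (clusters 2 and 3). A cluster of 31 E06 cells and 1 E07 cell stayed unnamed, with 4 of 8 epiblast markers raised. Differences between these rebuilt classes are given as values with no test.

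Both cytokine receptor genes and their shared subunit were high in hypoblast-like cells of the blastocyst. LIFR averaged 4.66, 6.71 and 7.83 at E07, E08 and E09 in hypoblast-like cells, against 1.84, 2.24 and 0.46 in epiblast-like cells of the same days. IL6ST averaged 9.33, 9.35 and 8.95 in hypoblast-like cells, against 6.66, 6.46 and 6.47 in epiblast-like cells. IL6R averaged 8.13, 7.74 and 7.67 in hypoblast-like cells, against 2.98, 2.90 and 3.12 in epiblast-like cells. For each of the 3 receptor genes the lowest hypoblast-like day lay above the highest epiblast-like day, as it did for 18.1% of the 9681 genes compared, while 25.4% were higher in hypoblast-like cells within each day and 23% were lower without overlap. The mean difference over the 3 days was 4.89 ± 2.30 for LIFR, 2.68 ± 0.20 for IL6ST and 4.85 ± 0.30 for IL6R (SD over days, n = 3). The LIFR difference was the least even, at 2.82 on the day where it was smallest and 7.37 on the day where it was largest, and the LIFR means of hypoblast-like cells stood in the order of the days. Within the title code MS02, which holds most E08 cells, the 36 hypoblast-like cells averaged 6.78 for LIFR, 9.35 for IL6ST and 7.73 for IL6R, against 2.34, 6.46 and 2.92 in the 23 epiblast-like cells.

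**Figure D1:**
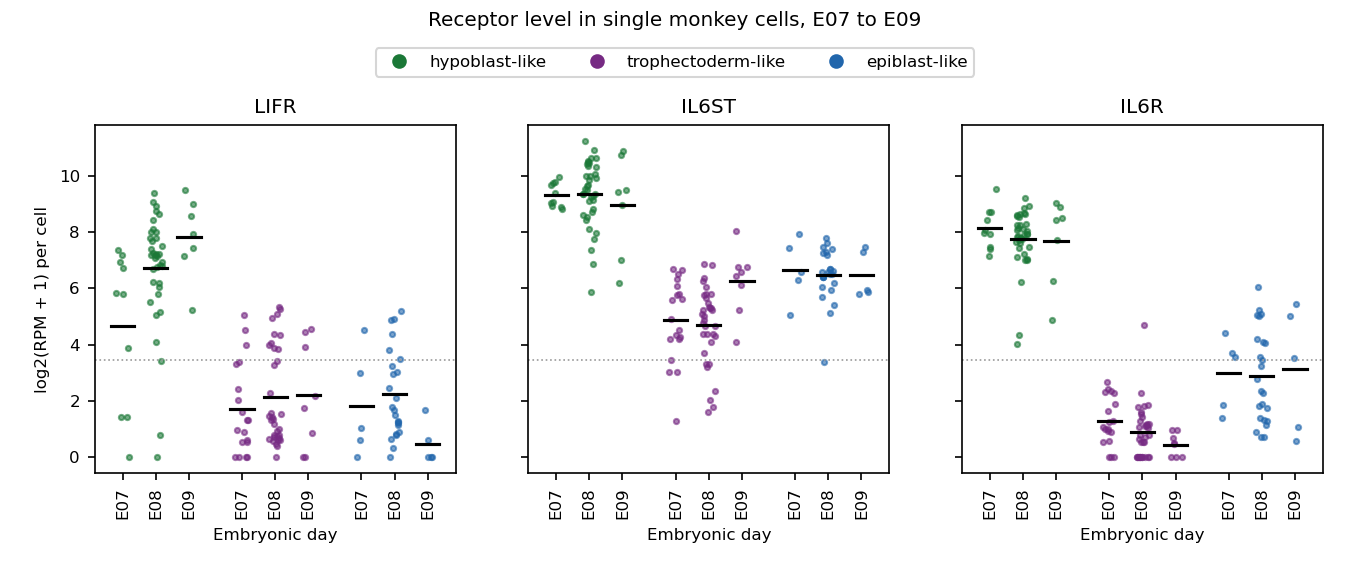
Level of LIFR, IL6ST and IL6R (log2(RPM + 1)) in each hypoblast-like, trophectoderm-like and epiblast-like monkey cell at E07, E08 and E09. Each point is 1 cell, horizontal bars are means over the cells of a day and the dotted line marks 10 RPM. Every hypoblast-like cell lies above the dotted line for IL6ST and IL6R, while some lie below it for LIFR.

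At E07 and E08, single hypoblast-like cells differed more in LIFR than in the other receptor genes, with an SD over cells of 2.77 and 2.01 on the log2 scale for LIFR, 0.43 and 1.17 for IL6ST and 0.72 and 1.07 for IL6R. At E09 LIFR had the smallest SD of the 3, at 1.42, against 1.78 for IL6ST and 1.55 for IL6R. At E07, LIFR ran from 0 to 162 RPM over 10 cells (median 55.3), and at E08 from 0 to 673 RPM over 37 cells (median 143). At E09 the 7 cells held 36.4 to 723 RPM (median 243). IL6R, which gives cells their response to interleukin 6, was present in every hypoblast-like cell, at 139 to 735 RPM at E07, 15.3 to 594 RPM at E08 and 28.5 to 523 RPM at E09. IL6ST ran from 456 to 1001 RPM at E07, 56.9 to 2394 RPM at E08 and 71.6 to 1869 RPM at E09. All 3 receptor genes reached 10 RPM in 7 of 10 hypoblast-like cells at E07, in 34 of 37 at E08 (91.9%, 95% exact Clopper-Pearson interval 78.1 to 98.3%) and in 7 of 7 at E09. The same was true of 1 of 5, 3 of 24 and 0 of 5 epiblast-like cells on those days, and of 0 of 19, 0 of 34 and 0 of 8 trophectoderm-like cells. These intervals cover counting error only. The median depth at E08 was 2210395 reads in hypoblast-like, 1919501 in trophectoderm-like and 2033790 in epiblast-like cells, and after each cell was thinned to 500000 reads LIFR still reached 10 RPM in 34 of 37 hypoblast-like and 6 of 24 epiblast-like E08 cells.

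The transducer and the feedback inhibitor did not follow the receptors in hypoblast-like cells. STAT3 averaged 5.93, 5.14 and 5.28 at E07, E08 and E09 in hypoblast-like cells, against 6.10, 5.72 and 6.18 in epiblast-like cells. The 2 classes overlapped, and the mean difference was -0.55 ± 0.37. STAT3 was lower in hypoblast-like cells within each of the 3 days, as were 35.1% of the genes compared. SOCS3 averaged 2.75, 2.35 and 2.70 in hypoblast-like cells and 1.55, 2.59 and 3.16 in epiblast-like cells, with a mean difference of 0.17 ± 0.90. Its median was 1.86 RPM over the 37 hypoblast-like cells of E08, 7 of which held no SOCS3 read.

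Trophectoderm-like cells held less of the receptor genes than hypoblast-like cells and more of the inhibitor gene. Against hypoblast-like cells they were lower on all 3 days for LIFR (1.71, 2.15 and 2.22), IL6ST (4.86, 4.68 and 6.25) and IL6R (1.27, 0.90 and 0.45), without overlap. The difference, hypoblast-like minus trophectoderm-like, averaged 4.37 ± 1.34 for LIFR, 3.95 ± 1.08 for IL6ST and 6.97 ± 0.21 for IL6R, and 17% of 9451 genes were higher in hypoblast-like cells without overlap. SOCS3 averaged 3.42, 4.18 and 5.41 at E07, E08 and E09 in trophectoderm-like cells, above every hypoblast-like and every epiblast-like day. Of the 9451 genes, 16% were lower in hypoblast-like cells without overlap, SOCS3 among them. Trophectoderm-like minus epiblast-like, the difference was 1.90 ± 0.33 for SOCS3, and 17% of 9637 genes were higher in trophectoderm-like cells without overlap. In the same comparison IL6ST (-1.27 ± 0.90), IL6R (-2.13 ± 0.49) and STAT3 (-0.84 ± 0.36) were lower without overlap, as were 23.2% of genes. LIFR overlapped between trophectoderm-like and epiblast-like days, at 0.51 ± 1.08.

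Over E06 to E09 no member passed a test for a trend with day in trophectoderm-like cells. limma's moderated test called 42 of 8819 genes, 0.476% (0.272% higher and 0.204% lower), at an adjusted p under 0.05 (Benjamini-Hochberg over all tested genes), and 0 of the 4 members tested, of which 1, IL6ST, had an unadjusted p under 0.05. The edgeR quasi-likelihood test on recovered reads called 0 genes of all those tested, so its result says nothing particular to these 4. IL6ST changed by 0.44 ± 0.19 (SE) per day (adjusted p = 0.314) and SOCS3 by 0.48 ± 0.22 per day (adjusted p = 0.35). STAT3 changed by -0.11 ± 0.19 per day (adjusted p = 0.841) and LIFR by -0.02 ± 0.20 (adjusted p = 0.971). IL6R was too low to be tested, with a mean of 1.64 at E06 and 0.45 at E09. The 9 trophectoderm-like cells of E14 differed from the earlier ones in LIFR, which averaged 5.75 there, against 1.71 to 2.44 over E06 to E09. That is 1 day with no replicate, so it has no test. The E14 cells share no title code with the earlier ones, so a difference of day cannot be told apart from one of code. Their cluster 7 had 4 of 8 extraembryonic mesenchyme markers raised, against 0 of 8 in clusters 10 and 11. The summed mesenchyme markers had a median of 68.5 RPM at E14 (16.9 to 250), and their part in the LIFR difference was not tested. LIFR ran from 2.42 to 361 RPM in those 9 cells.

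**Figure D2:**
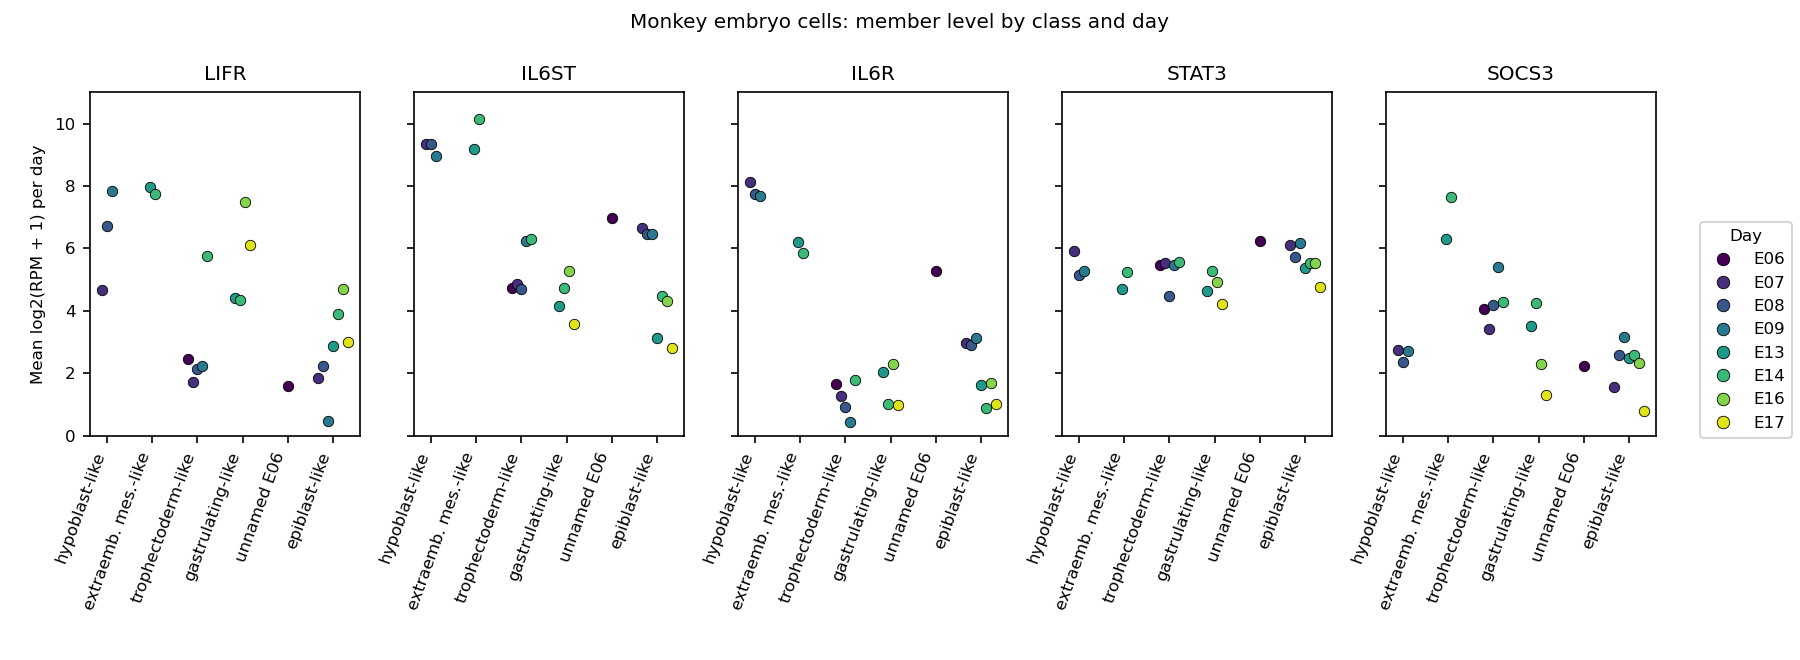
Mean log2(RPM + 1) of the 5 genes in monkey embryo cells, with 1 point per class and day of at least 5 cells, coloured by day. IL6ST and IL6R are highest in hypoblast-like and extraembryonic-mesenchyme-like cells, LIFR is at 7.97 in extraembryonic-mesenchyme-like, 7.83 in hypoblast-like and 7.49 in gastrulating-like cells on the highest day of each, STAT3 lies between 4.20 and 6.22 in every class, and SOCS3 is highest in extraembryonic-mesenchyme-like cells.

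After implantation the extraembryonic-mesenchyme-like cells carried the receptors, here together with SOCS3. LIFR averaged 7.97 and 7.76 at E13 and E14 in extraembryonic-mesenchyme-like cells, against 2.87 and 3.9 in epiblast-like cells. IL6ST averaged 9.19 and 10.16 in extraembryonic-mesenchyme-like cells, against 3.11 and 4.47 in epiblast-like cells. IL6R averaged 6.21 and 5.84 in extraembryonic-mesenchyme-like cells, against 1.63 and 0.90 in epiblast-like cells. SOCS3 averaged 6.30 and 7.66 in extraembryonic-mesenchyme-like cells, against 2.49 and 2.59 in epiblast-like cells. These 4 genes were higher on both days without overlap, as were 27.6% of 9711 genes, a share that 2 days a side make large. STAT3 was 4.69 and 5.23 in extraembryonic-mesenchyme-like cells and 5.39 and 5.55 in epiblast-like cells, lower without overlap, as were 33.7% of genes. All 3 receptor genes reached 10 RPM in 16 of 16 extraembryonic-mesenchyme-like cells at E13 and 12 of 14 at E14, against 0 of 24 and 0 of 25 epiblast-like cells. Within the title code MS10, the 4 extraembryonic-mesenchyme-like cells of E13 averaged 7.78 for LIFR and 6.10 for SOCS3, against 2.23 and 2.40 in 13 epiblast-like cells. At E14 these classes share no title code, so the difference of that day cannot be told apart from one of code.

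SOCS3 differed between the 2 receptor-rich classes. Extraembryonic-mesenchyme-like cells held 13.8 to 295 RPM of SOCS3 at E13 (median 82.1, 16 cells) and 57.8 to 530 RPM at E14 (median 228, 14 cells). Hypoblast-like cells had medians of 6.46, 1.86 and 2.44 RPM at E07, E08 and E09. No day holds both classes in units of 5 cells, so that difference cannot be told apart from one of day. Extraembryonic-mesenchyme-like cells also had 4 of 10 hypoblast markers raised, with summed medians of 1851 RPM at E13 and 2614 RPM at E14, and hypoblast-like cells 1 of 8 mesenchyme markers. ATF3, an immediate-early stress gene, was at 5.86 and 5.47 in extraembryonic-mesenchyme-like cells at E13 and E14, against 1.06 and 1.60 in epiblast-like cells. It was picked as the gene most correlated with SOCS3 over units that include these, so that it follows SOCS3 here was set by the choice. Its part in the SOCS3 difference was not tested.

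Gastrulating-like cells of E16 and E17 held more LIFR than epiblast-like cells of the same days. LIFR averaged 4.4, 4.35, 7.49 and 6.11 at E13, E14, E16 and E17 in gastrulating-like cells, against 2.87, 3.9, 4.69 and 2.99 in epiblast-like cells. It was higher within each of the 4 days, as were 12.1% of 9856 genes, with a mean difference of 1.98 ± 1.23, and the ranges overlapped. The E13 mean rests on 2 of 6 gastrulating-like cells with at least 10 RPM, up to 1163 RPM, and the median there was 6.45 RPM, against 7.31 RPM in epiblast-like cells. No member differed on all days without overlap, as 3.4% of genes did upward and 4.64% downward. IL6ST was also higher within each day, by 0.76 ± 0.34, and STAT3 was lower within each day, at -0.54 ± 0.20, as were 16.6% of genes. IL6R stayed at 1.00 to 2.30 in gastrulating-like cells. The 2 gastrulating-like clusters differed in LIFR and SOCS3. They hold mostly different days, and their means pool cells of several days, so this difference cannot be told apart from one of day. Cluster 2, led by LHX1, EOMES and CER1 and holding 10 cells of E16, 17 of E17, 2 of E13 and 1 of E14, averaged 6.96 for LIFR and 1.76 for SOCS3 over 30 cells. Cluster 3, led by SPP1 and T and made of E13 and E14 cells, averaged 3.37 for LIFR and 4.29 for SOCS3 over 17 cells. The LIFR mean of cluster 3 was close to that of cluster 8, the epiblast-like cells of E13 and E14, at 3.39. Cluster 2 had 5 of 10 hypoblast markers raised and cluster 3 had 1. Their sums had medians of 1063 and 917 RPM in gastrulating-like cells of E16 and E17 (ranges 527 to 6528 and 358 to 8460), against 116 and 74.1 RPM in epiblast-like cells, and the part of these markers in the LIFR difference was not tested.

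The unnamed E06 cluster, whose leading genes were DPRX, SPIC and NLRP7, already held IL6ST and IL6R. IL6ST averaged 6.96 in its 31 E06 cells, against 4.73 in the 12 trophectoderm-like cells of E06. IL6R averaged 5.26 in the unnamed cluster, against 1.64 in trophectoderm-like cells, and single cells of the cluster ran from 0 to 397 RPM (median 69.5). SOCS3 averaged 2.22 in the unnamed cluster, against 4.07 in trophectoderm-like cells. LIFR was low in both, at 1.60 and 2.44. Of 9693 genes, 8.13% were higher by at least 1 on the log2 scale in the unnamed cluster, among them IL6ST and IL6R, and 11.2% were lower by at least 1, among them SOCS3. With 1 day a side, these differences have no replicate check.

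The order of the levels over 9 groups of classes and stages differed between the genes. For LIFR, extraembryonic-mesenchyme-like cells (7.86 ± 0.15, SD over 2 days), hypoblast-like cells (6.40 ± 1.61, 3 days), E14 trophectoderm-like cells (5.75) and gastrulating-like cells (5.59 ± 1.51, 4 days) came first, and no neighbours among them differed beyond the larger SD. Epiblast-like cells of E13 to E17 (3.61 ± 0.86) lay below gastrulating-like cells by more than that SD, ESC cultures (2.87 ± 0.30) followed within it, and epiblast-like cells of E07 to E09 were lowest (1.51 ± 0.94). For IL6ST, extraembryonic-mesenchyme-like (9.67 ± 0.68) and hypoblast-like cells (9.21 ± 0.22) did not differ beyond the spread, and hypoblast-like cells lay 2.25 above the next group, the unnamed E06 cluster. For IL6R, hypoblast-like cells (7.85 ± 0.25) were beyond the spread above extraembryonic-mesenchyme-like cells (6.02 ± 0.26), which were followed by the unnamed E06 cluster (5.26) and epiblast-like cells of E07 to E09 (3.0 ± 0.11). All other groups lay between 1.07 and 1.84 for IL6R, and no neighbours among them differed beyond the spread. For STAT3 the group means spanned 4.77 to 6.22, and of the 8 gaps between neighbours only that between epiblast-like cells of E07 to E09 and E14 trophectoderm-like cells exceeded the spread. For SOCS3, extraembryonic-mesenchyme-like cells (6.98 ± 0.96) stood beyond the spread above ESC cultures (4.45 ± 1.96) and trophectoderm-like cells (4.27 ± 0.83 over E06 to E09), and epiblast-like cells of E13 to E17 were lowest (2.05 ± 0.84).

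In the late days, after implantation, epiblast-like means were higher for LIFR and lower for IL6ST and IL6R than in the blastocyst days. In limma's moderated test of E13, E14, E16 and E17 against E07, E08 and E09, 1 of the 5 members was called higher and 2 lower. Of 9897 genes tested, 37.5% were called, 13.3% higher and 24.2% lower, so a count of 3 among 5 is near the background. LIFR was at 2.87, 3.9, 4.69 and 2.99 on the late days, against 1.84, 2.24 and 0.46 on the early days, and every late day lay above every early day. The difference was 2.10 ± 0.54 (SE), with an adjusted p of 0.00918 from limma, and 0.0522 without E09, the lowest early day, which holds 5 cells. LIFR reached the mean of 2 that the test required on 4 of the 4 late days and 1 of the 3 early days. The late days, where it was higher, thus brought it into the test, and without that filter its adjusted p was 0.0617 in limma. Within the title code MS08, which alone holds both stages, the LIFR difference was 1.56, from 25 late and 2 early cells.

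IL6ST had the largest difference of the receptor genes. It was at 3.11, 4.47, 4.31 and 2.80 on the late days, against 6.66, 6.46 and 6.47 on the early days, with no overlap. The difference was -2.86 ± 0.41 (limma adjusted p = 0.000237), and -2.30 within MS08. After thinning to 500000 reads, IL6ST reached 10 RPM in 8 of 18, 19 of 22, 16 of 22 and 17 of 33 cells at E13, E14, E16 and E17, against 5 of 5, 24 of 24 and 5 of 5 cells at E07, E08 and E09. IL6R was at 1.63, 0.90, 1.70 and 1.01 on the late days, against 2.98, 2.90 and 3.12 on the early days, a difference of -1.69 ± 0.35 (limma adjusted p = 0.00261). It reached the required mean of 2 on 0 of the 4 late and 3 of the 3 early days, so it entered the test only through the side on which it was higher. Over all tested genes the median difference was -0.26 with the deposited scaling and -0.00 with quantile-normalized values, and 35.6% and 51.8% of calls were higher. LIFR and IL6ST had the same direction and passed with both, and IL6R had the same direction with both. The summed mesenchyme markers, a class in which LIFR is high, had medians of 165, 243, 366 and 105 RPM on the late days, against 100.3, 41.4 and 89.8 RPM on the early days, with up to 14302 RPM in 1 cell of E16. Their part in the LIFR difference was not tested.

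The transducer and the feedback inhibitor did not pass in that comparison. STAT3 was at 5.39, 5.55, 5.52 and 4.77 on the late days, against 6.10, 5.72 and 6.18 on the early days. Every late day lay below every early day, and the difference was -0.69 ± 0.28 (limma adjusted p = 0.0662). With the unnamed E06 cells counted as an early day, an alternative chosen after seeing the data, STAT3 passed, at -0.75 with an adjusted p of 0.0364 in limma. SOCS3 was at 2.49, 2.59, 2.33 and 0.80 on the late days and 1.55, 2.59 and 3.16 on the early days, which overlap. Its difference was -0.38 ± 0.51 (limma adjusted p = 0.584) and ran from -0.82 to 0.53 over its 15 alternatives, with no call. Within MS08 it was of the opposite sign, at 1.12. The lowest SOCS3 value was that of E17, where 23 of 35 cells held no read. The median depth of epiblast-like cells was 1447211 reads at E17 and lower, 852659 reads, at E13.

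**Figure D3:**
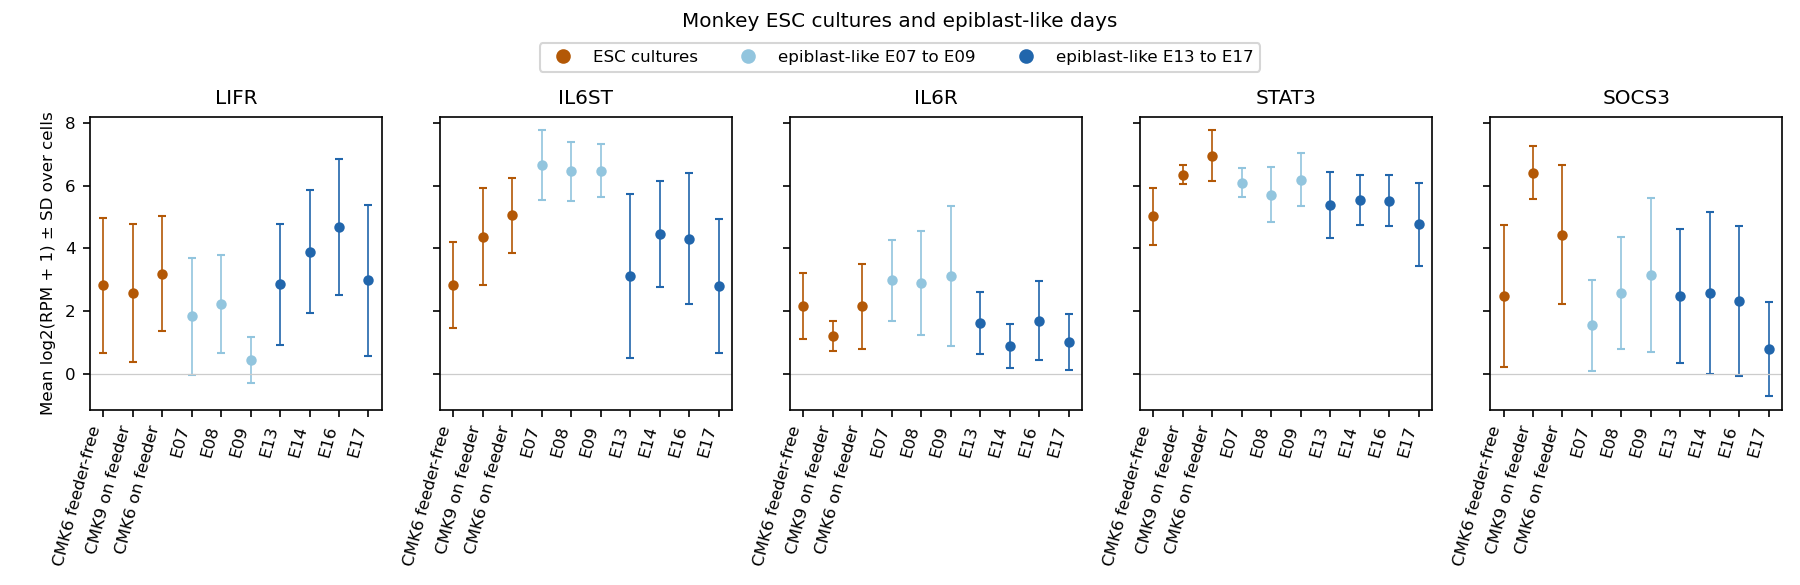
Mean log2(RPM + 1) of the 5 genes in the 3 monkey ESC cultures and on each epiblast-like day. Bars are the SD over the cells of a culture or day. LIFR is higher and IL6ST lower on the days E13 to E17 than on E07 to E09, and the ESC cultures differ among themselves in IL6ST, STAT3 and SOCS3.

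Of 17 other genes of the pathway tested over the same days, 7 were called lower and 0 higher. The ligands were hardly detected: of 8 ligand genes in the monkey table, only IL6 reached a mean of 2 in any of 25 units, at 2.14 in E06 and 2.21 in E14 trophectoderm-like cells, and LIF peaked at 1.21 in CMK9 cells. Of the other receptors, OSMR, the oncostatin M receptor, and IL11RA were tested and neither was called. Of 5 kinases and transducers tested, 3 were called lower on the late days, as were 24.2% of all genes, and 0 higher: the kinase gene TYK2 (-1.67, adjusted p = 0.00602), STAT5B (-1.30, 0.0429) and the phosphatase gene PTPN11 (-0.72, 0.0408), all from limma. TYK2 reached a mean of 2 on early days only. Of 3 inhibitors tested, limma called 0, with 1, PIAS3, under an unadjusted p of 0.05.

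Some genes known as LIF and STAT3 targets in mouse ESCs differed by more than any of the 5 members. Of 7 tested, 4 were called lower in late epiblast-like cells, against 24.2% of all genes, and 0 higher, with a list median of -3.65 against -0.26 over all tested genes. TFCP2L1, a naive-state transcription factor gene, differed by -5.59 ± 0.39 (limma adjusted p = 1.09e-06), KLF4 by -5.01 ± 0.79 (0.000427), KLF5 by -4.96 ± 0.43 (5.96e-06) and GBX2 by -3.65 ± 0.92 (0.00816). TFCP2L1 reached a mean of 2 on early days only.

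Monkey ESC cultures were set against both embryo stages, 2 comparisons that share the ESC cultures. Against late epiblast-like days, limma called 8.65% of 9880 genes (7.14% higher and 1.52% lower) and 0 of the 4 members tested, of which 1, SOCS3, had an unadjusted p under 0.05, and edgeR's quasi-likelihood test on recovered reads also called 0 of the 4. SOCS3 was at 2.49, 6.41 and 4.44 in feeder-free CMK6, CMK9 and on-feeder CMK6 cells, against 2.49, 2.59, 2.33 and 0.80 on the late days. LIFR differed by -0.74 ± 0.48 (adjusted p = 0.345), IL6ST by 0.41 ± 0.58 (0.69), STAT3 by 0.81 ± 0.41 (0.236) and SOCS3 by 2.40 ± 0.78 (0.0783). IL6R was too low to be tested. Without the feeder-free culture, SOCS3 (3.38, adjusted p = 0.0213) and STAT3 (1.35, 0.0387) passed. Among other pathway genes, 1 of 13 tested was called, PTPN11, higher by 1.06 ± 0.27 (limma adjusted p = 0.0361). Over all tested genes the median difference was 0.28 with the deposited scaling and -0.02 with quantile-normalized values, and 82.5% and 55.2% of calls were higher.

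Against early epiblast-like days, 29.9% of 10142 genes were called (16.2% higher and 13.7% lower), and 1 of the 5 members. IL6ST was at 2.83 in feeder-free CMK6, 4.37 in CMK9 and 5.05 in on-feeder CMK6 cells, against 6.66, 6.46 and 6.47 on the early days, a difference of -2.45 ± 0.49 (limma adjusted p = 0.00352). LIFR differed by 1.35 ± 0.51 (adjusted p = 0.0675) and passed only with a pseudocount of 10 (0.0309) among its 14 alternatives. IL6R differed by -1.16 ± 0.43 (adjusted p = 0.0647) and passed under 3 of its 14 alternatives (adjusted p from 0.027 to 0.22). SOCS3 differed by 2.02 ± 0.85 (adjusted p = 0.0981), passed in edgeR (0.0485) and, without the feeder-free culture, stood at 2.99 (0.0128). STAT3 differed by 0.11 ± 0.42 (adjusted p = 0.869). Of 18 other pathway genes tested, 6 were called lower, among them KLF4 (-6.85 ± 0.52, 8.66e-06) and TFCP2L1 (-5.81 ± 0.42, 6.26e-06), both of which reached a mean of 2 on early days only and so entered the test through the side on which they were higher.

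The 3 ESC cultures differed among themselves in the transducer and the inhibitor. STAT3 ran from 7.59 to 56.3 RPM in the 9 feeder-free CMK6 cells (median 41.5), against 41.6 to 408 RPM in the 14 on-feeder CMK6 cells (median 129.8). The means were 5.02 in feeder-free and 6.96 in on-feeder CMK6 cells, a difference of -1.93. IL6ST differed by -2.22 between feeder-free and on-feeder CMK6 cells and SOCS3 by -1.95, while LIFR (-0.37) and IL6R (-0.00) were close. Of 10419 genes, 11.2% were lower by at least 1 in feeder-free cells, with 3 of the 5 members among them, and 8.22% were higher, with 0 of the 5. CMK9 cells had more SOCS3 than CMK6 cells on the same feeders, with means of 6.41 in CMK9 and 4.44 in CMK6. SOCS3 ran from 34.3 to 198 RPM in the 8 CMK9 cells (median 81.4) and from 0 to 139 RPM in the 14 on-feeder CMK6 cells (median 28.4). Of 10581 genes, 12.1% were higher by at least 1 in CMK9, with SOCS3 the only member among them, and 6.64% were lower, with 0 of the 5 members. Each culture is 1 sample, so these differences have no test.

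**Figure D4:**
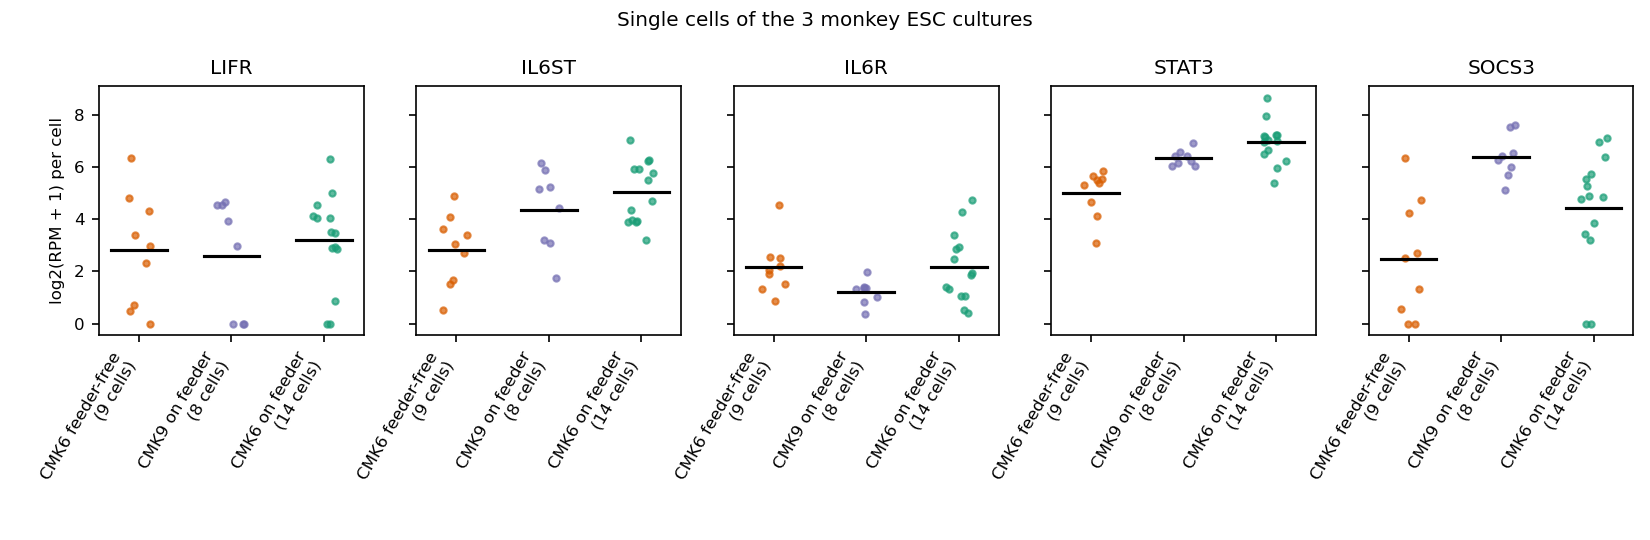
Level of the 5 genes (log2(RPM + 1)) in each cell of the 3 monkey ESC cultures. Points are cells and horizontal bars are means, 5.02, 6.36 and 6.96 for STAT3 and 2.49, 6.41 and 4.44 for SOCS3 in feeder-free CMK6, CMK9 and on-feeder CMK6 cells.

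Other values differed between the cultures beside these. The feeders, the way the cells were detached, the title code and, as far as labelled, the medium differ between feeder-free and on-feeder CMK6. Their parts cannot be told apart. ATF3 averaged 0.60 in feeder-free CMK6, 4.73 in CMK9 and 3.48 in on-feeder CMK6 cells. It was picked for its correlation with SOCS3 (0.85, the highest of all genes) over units that include these cultures. That it follows SOCS3 here was thus set by the choice, and its part in the SOCS3 differences was not tested. The summed markers of extraembryonic mesenchyme, which fibroblasts share, had medians of 334 RPM in feeder-free CMK6 (106 to 605), 396 RPM in CMK9 (97.5 to 1272) and 691 RPM in on-feeder CMK6 cells (86 to 1502), with 3, 2 and 2 of 8 markers at a mean of at least 2. LUM and HAND2 were at 0 in all on-feeder cells. Within the title code MS11, which feeder-free CMK6 shares with 8 epiblast-like E17 cells, the difference, feeder-free minus epiblast-like, was 1.41 for LIFR and -0.62 for STAT3, both of the opposite sign to the value over all cultures and days, and 1.91 for SOCS3.

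In mouse, all 4 members were lower in EpiLCs than in the naive ESCs they came from. Lifr (gene ID 16880, mm10 chr15:7090614-7197489, plus strand) had a mean of 2.80 in EpiLCs, against 5.11 in 2i and LIF ESCs. Its range was 0 to 50.2 RPM in 12 EpiLCs (median 9.35), against 0.805 to 84.3 RPM in 10 ESCs (median 64.9). Il6st (16195, chr13:112464070-112510086, plus strand) averaged 2.2 in EpiLCs, against 4.46 in ESCs. Stat3 (20848, chr11:100885098-100939540, minus strand) averaged 2.29 in EpiLCs, against 5.25 in ESCs, with 4 of 12 EpiLCs and 0 of 10 ESCs at 0 reads. Socs3 (12702, chr11:117966079-117970047, minus strand) averaged 0.27 in EpiLCs, against 1.32 in ESCs, and was low in both. The differences were -2.31, -2.26, -2.96 and -1.04 for Lifr, Il6st, Stat3 and Socs3. Of 9575 genes with a mean of at least 2 in either culture, 12.8% were lower in EpiLCs by at least 1 and 18.4% higher. Socs3 reached that mean in neither culture and is not among those genes. Il6ra (16194, chr3:89864059-89913196, minus strand) averaged 0.70 in EpiLCs and 1.90 in ESCs. With 1 culture a side there is no test.

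Mouse genes named as targets gave differences of both signs in that comparison. The naive-state factor gene Klf4 averaged 0.73 in EpiLCs, against 7.36 in ESCs. Tfcp2l1 averaged 1.3 in EpiLCs, against 7.80 in ESCs. The difference for Bcl3 was of the same sign, at 0.98 in EpiLCs and 5.58 in ESCs, while Myc was higher in EpiLCs, at 6.17 against 2.48 in ESCs.

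The means of the 4 members were lower in every mouse embryo class than in 2i and LIF ESCs. The share of all genes that did the same was not computed, and Socs3 was low in every group. Visceral-endoderm-like cells held more Lifr and Stat3 than epiblast-like cells of E5.5. Lifr averaged 2.98 in 9 visceral-endoderm-like and 0.66 in 16 epiblast-like cells, and Stat3 averaged 4.82 in visceral-endoderm-like and 2.69 in epiblast-like cells. Stat3 ran from 13.5 to 62.4 RPM in the visceral-endoderm-like cells and from 0 to 31.8 RPM in the epiblast-like cells. Il6st averaged 2.11 in visceral-endoderm-like and 1.18 in epiblast-like cells, and Socs3 0.05 in visceral-endoderm-like and 0.07 in epiblast-like cells. Of 10101 genes, 24.7% were higher by at least 1 in visceral-endoderm-like cells, Lifr and Stat3 among them, and 17.6% lower, with no member. Il6ra had no read in any of the 9 visceral-endoderm-like cells of E5.5, which allows a share of cells with a read of up to 33.3%, taken as 3 counts of the total.

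At E6.5, Lifr averaged 2.70 in 5 visceral-endoderm-like cells, 4.19 in 10 mesoderm-like cells and 2.87 in an unnamed cluster of 9 cells, and Stat3 averaged 4.72, 2.69 and 2.19 in those 3 classes. All 24 libraries of E6.5 held reads of the immunoglobulin gene Igkc, at 32.5 to 26053 RPM, and 4 of them were above 1000 RPM. Without those cells the visceral-endoderm-like means were 2.84 for Lifr and 4.43 for Stat3, the mesoderm-like means were the same, and those of the unnamed cluster were 1.84 for Lifr and 0.96 for Stat3. The part of the immunoglobulin reads in these values was not tested.

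**Figure D5:**
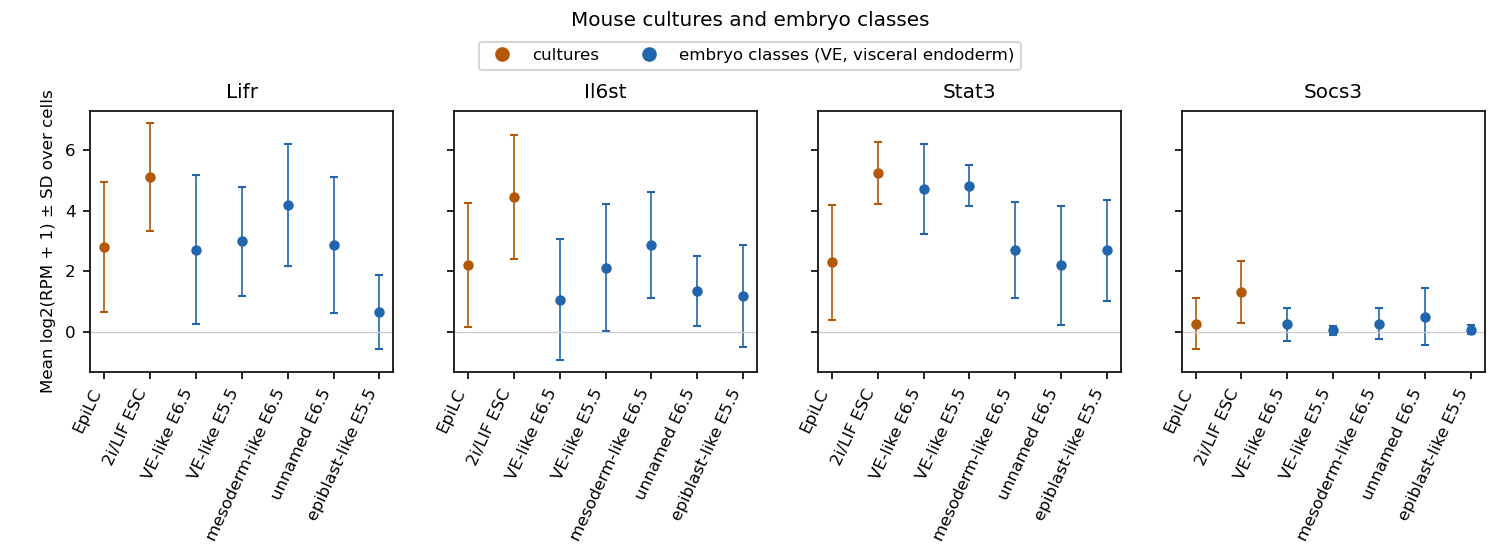
Mean log2(RPM + 1) of the 4 mouse genes in EpiLCs, 2i/LIF ESCs and each embryo class and day. Bars are the SD over cells. Lifr, Il6st and Stat3 are lower in EpiLCs than in 2i/LIF ESCs, Stat3 is at 4.82 and 4.72 in visceral-endoderm-like cells of E5.5 and E6.5, and Socs3 is at most 1.32 in any group.

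Some genes followed the members over the 25 monkey units, which share libraries and classes, so the correlations are a description. For LIFR the highest Pearson correlations over 10068 genes were with COL4A1 (0.89), the placeholder gene LOC102131610 (0.88) and COL4A2 (0.87), the first and last of which encode basement membrane collagens. For IL6ST they were PGM3 (0.90), DEPTOR (0.88) and CHIC2 (0.87), and for IL6R they were SYNE1 (0.92), ZNF503 (0.91) and IL6ST (0.87). For STAT3 they were CEBPZ (0.87), MTX2 (0.83) and LOC102115384 (0.80). For SOCS3 they were ATF3 (0.85), LOC102142355 (0.80) and PEA15 (0.78). Among the members, IL6ST and IL6R were the most alike pair, and the correlation of STAT3 with the receptor genes was -0.45 for LIFR, 0.15 for IL6ST and 0.09 for IL6R.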

How the data were processed

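The data were SC3-seq profiles of 421 monkey and 71 mouse cells. The authors deposited RPM per gene and cell. The tools named in the submitters' processing notes, without their roles, are TopHat 1.4.1, Cufflinks 2.2.0 and cutadapt 1.3. The builds, per the file headers, are macFas5 and mm10. Of 108 mouse columns, 37 matched no sample and were not used. Monkey rows named by a placeholder were given symbols by gene ID (3296 rows). Mouse positions are from the GENCODE annotation of mm10. Reads were recovered from the RPM steps: at least 99.7% of low monkey values and 99.6% of low mouse values lay within 0.1 of a whole read.

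Cells were clustered on 2000 variable genes with scanpy 1.11.5 (Leiden, igraph 0.11.9, resolution 1, 12 components and 10 neighbours for monkey, 8 of each for mouse), with no doublet removal. A cluster was named where over 50% and at least 3 of a class's markers were raised by 1 on the log2 scale.

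For each class and day, or culture, the mean of log2(RPM + 1) was formed. Genes whose mean reached 2 in 3 or more units entered limma 3.58.1 (trend, two-sided, Benjamini-Hochberg adjustment over all tested genes, threshold 0.05) in R 4.3.3. The edgeR 4.0.16 quasi-likelihood test on summed recovered reads was an alternative, beside other pseudocounts, filters, scalings and clusterings and fits without each day or culture. It called 2815 genes for late against early epiblast-like days, 356 and 2603 for ESCs against late and early days, and 0 for the trophectoderm-like trend. Both tests were run on simulated data. Those reads were drawn per unit, without single cells or title codes, so they do not give the error rate on these data. All 5 members were always named. List genes were named where they passed, up to 4 a list by size, but not all of these for ESCs against early days. Ligands were named where a mean reached 2, as were the 3 genes most correlated with each member. The members and lists were chosen with earlier results of these data known. The E06 alternative was chosen after seeing the data. The result of 1 list gene is not reported here. Depth sets the limit of detection: 1 read in a library of 166742 reads is more RPM than in one of 4491539.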

Additional observations from a re-analysis of the deposited data

Results flagged for a closer look

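In 5 of 30 groups of 4 to 10 days or cells, 1 value lay far from the others, by a rule set to about 1 in 20. The groups share days and cells over the genes, so that rate cannot show whether 5 of 30 is more than chance. IL6ST in trophectoderm-like cells was highest at E09, at 6.25, against 4.68 to 4.86 at E06 to E08. STAT3 in trophectoderm-like cells was lowest at E08, at 4.48, against 5.46 to 5.55 on the other 3 days. SOCS3 in late epiblast-like cells was lowest at E17, at 0.80, against 2.33 to 2.59 at E13 to E16. Among the 9 feeder-free CMK6 cells, 1 cell had IL6R at 4.53, against a culture mean of 2.16. Among the 10 mouse ESCs in 2i and LIF, 1 cell had Lifr at 0.85, against a culture mean of 5.11.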

How the results depend on the processing

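The count of genes for ESCs against late epiblast-like days, 855, was the least stable: 113 without a filter, 429 with quantile normalization, 431 on log2 of the mean RPM and 356 with edgeR, and 146 to 656 when 1 day or culture was left out (146 without on-feeder CMK6, 148 without CMK9, 288 without E14). Against early days, 3031 genes became 1809 to 2226 (1809 without on-feeder CMK6, 1885 without E08). The trophectoderm-like trend, 42 genes, gave 1 with a pseudocount of 10, 0 without a filter (2963 unadjusted), 1 with quantile normalization, 0 on log2 of the mean RPM (1298 unadjusted), 0 with edgeR (1257 unadjusted), and 1 to 799 when 1 day was left out (799 without E09). On log2 of the mean RPM, the IL6R difference was 4.37 for hypoblast-like minus epiblast-like cells (4.85 otherwise) and -2.65 for trophectoderm-like minus epiblast-like cells (-2.13 otherwise). LIFR in late against early epiblast-like days lost its call without a filter (adjusted p = 0.0617) and without E09, by limma. IL6ST passed under 15 of 15 alternatives there. The test of IL6R needs all 3 early days and could not be made without E07, E08 or E09. Of all values of single members under the alternatives, those above included, 263 were counted as unchanged. Another 9 passed only in the alternative, 2 lost the call (both LIFR) and 8 moved by more than the spread. A value with no call in either fit counted as unchanged even where its sign changed, as for SOCS3 in late against early epiblast-like days. Differences with no test counted as unchanged where they stayed within the spread. The cause of the changes was not tested. No paired analysis was possible because the labels number cells, not embryos or cultures, and the groups tested against each other share no day; differences between classes of 1 day were formed within the day and not tested. At E17, the shallowest day, a cell with few reads cannot show a gene at a few RPM.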
